A study of Homo sapiens with 16 samples.

Results

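The 78 genes described here encode the proteins of the cytosolic ribosome. They were chosen by symbol from the 25369 genes of the count table: RPL or RPS followed by a number, with or without the endings A or X, together with the stalk genes RPLP0, RPLP1 and RPLP2, RPSA and FAU. Of these, 46 encode proteins of the large subunit and 32 proteins of the small subunit. Polyadenylated RNA was sequenced from TPC1 and K1, both papillary thyroid carcinoma cell lines with wild-type p53. K1 is a derivative of the GLAG-66 line. Each line was treated for 24 h with 0.2% DMSO as the vehicle, with 10 µM nutlin (nutlin-3a, which keeps MDM2 from binding p53), with 25 µM GSK2830371 (an inhibitor of the phosphatase PPM1D, also called WIP1), or with nutlin and GSK2830371 together, called the combination below. Each of the 8 groups held 2 libraries, 16 together. TPC1 was grown in RPMI and K1 in DMEM, so line and medium cannot be told apart. The study states for its experiments in general that replicates were prepared independently, and p-values measure the spread between these libraries.

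A ribosome is built from ribosomal RNA, transcribed mainly by RNA polymerase I in the nucleolus, and from about equimolar ribosomal proteins whose mRNAs are made by RNA polymerase II and are among the most abundant of a growing cell. Several ribosomal proteins that are not built into a ribosome, RPL5 and RPL11 above all, bind MDM2 and thereby stabilise p53, and loss of 1 copy of several of these genes, RPS19 most often, causes Diamond-Blackfan anaemia. The mRNAs of ribosomal proteins begin with a C followed by a run of pyrimidines, the TOP tract, through which mTOR and the binding protein LARP1 set how many of them are translated. RNA sequencing of this kind measures the level of these mRNAs and not their translation.

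The TOP tract was looked for in the 30 bases around the annotated start of each gene, 15 on each side, on the transcribed strand alone, as a run of at least 5 letters C or T that begins with C and whose first base lies within 10 bases of the start. Of the 63 members with a promoter in the RefSeq table (GRCh38.p14), 88.9% held such a run and 73.0% held one of 8 or more bases. Among all 15842 protein-coding genes of that table the shares were 33.8% and 9.65%. The windows below are those of the genes on which the results turn, 5′ to 3′ with the run in capitals. RPS19 and RPL13A had the largest response of all members to nutlin in TPC1, RPS26 and RPL41 stood apart from the other members between the lines, RPL7A held the longest run, of 23 bases with the last past the window, and RPS4X held none.
RPS19: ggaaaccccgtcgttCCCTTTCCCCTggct
RPL13A: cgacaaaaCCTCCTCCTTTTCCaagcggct
RPL7A: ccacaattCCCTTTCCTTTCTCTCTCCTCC
RPL41: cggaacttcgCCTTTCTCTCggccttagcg
RPS26: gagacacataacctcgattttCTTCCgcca
RPS4X: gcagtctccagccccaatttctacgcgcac
In GRCh37, the build of the count table, the RPS19 window lies on the plus strand at chr19:42364310-42364339, where the gene (ENSG00000105372, chr19:42364325-42376993) begins. The RPL13A window lies at chr19:49990850-49990879 and the RPL41 window at chr12:56510402-56510431, both on the plus strand. The RPS26 window, also on the plus strand, lies at chr12:56435687-56435716, inside the annotated gene, whose first base in GENCODE is at 56435135. The RPL7A window lies on the plus strand at chr9:136215058-136215087 and the RPS4X window on the minus strand at chrX:71497084-71497113. The 78 genes lie on 21 chromosomes, 12 of them on chromosome 19.

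Library totals ran from 30789887 to 76648552 counts in TPC1 and from 28888686 to 37161241 counts in K1. In TPC1 the libraries numbered 1 held 30789887 to 36896529 counts and those numbered 3 held 62853375 to 76648552, and the difference between the numbers recurred across treatments (correlation over 12303 genes 0.496 to 0.696 for the 6 pairs of treatments). Fits with the number as a replicate block are therefore given beside the TPC1 results. Both lines expressed 3 of 8 thyroid follicular markers at 1 CPM (counts per 1000000 counts of the library) or more, with TSHR, NKX2-1, SLC5A5 and DIO1 among those below it, and 2 of 5 epithelial markers, KRT8 and KRT18, with KRT19, EPCAM and CDH1 below it. Of the 3 markers of blood, endothelium and stroma PTPRC and PECAM1 were below it. The p53 targets CDKN1A and MDM2 rose under nutlin in both lines, CDKN1A by 48.7-fold in TPC1 and 8.96-fold in K1 and MDM2 by 31.1-fold and 8.26-fold.

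The summed share of reads in ribosomal protein genes separated the lines and, in TPC1, the treatments. In TPC1 it was 6.40% and 7.71% of all gene counts in the DMSO libraries (numbers 1 and 3), 8.43% and 8.77% after nutlin, 6.41% and 6.96% after GSK2830371, and 9.60% and 10.8% after the combination. Every nutlin or combination library thus lay above both DMSO libraries, the combination libraries lay above both nutlin libraries, and the GSK2830371 libraries lay within the DMSO range. In K1 the share was 4.25% and 4.63% in DMSO, 4.48% and 4.46% after nutlin, 4.60% and 4.15% after GSK2830371, and 4.61% and 4.44% after the combination. All 8 K1 libraries lay below every TPC1 library. In K1 the nutlin and combination libraries lay within the DMSO range, and of the GSK2830371 libraries that at 4.60% lay within it and that at 4.15% below it. The large subunit took 61.8% to 62.8% of the members' reads in TPC1 and 62.1% to 62.5% in K1, so the balance between the subunits moved little. These are shares of sequenced RNA. They do not measure RNA per cell, and in bulk samples fewer cells of a kind and less RNA per cell cannot be told apart.

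**Figure D1:**
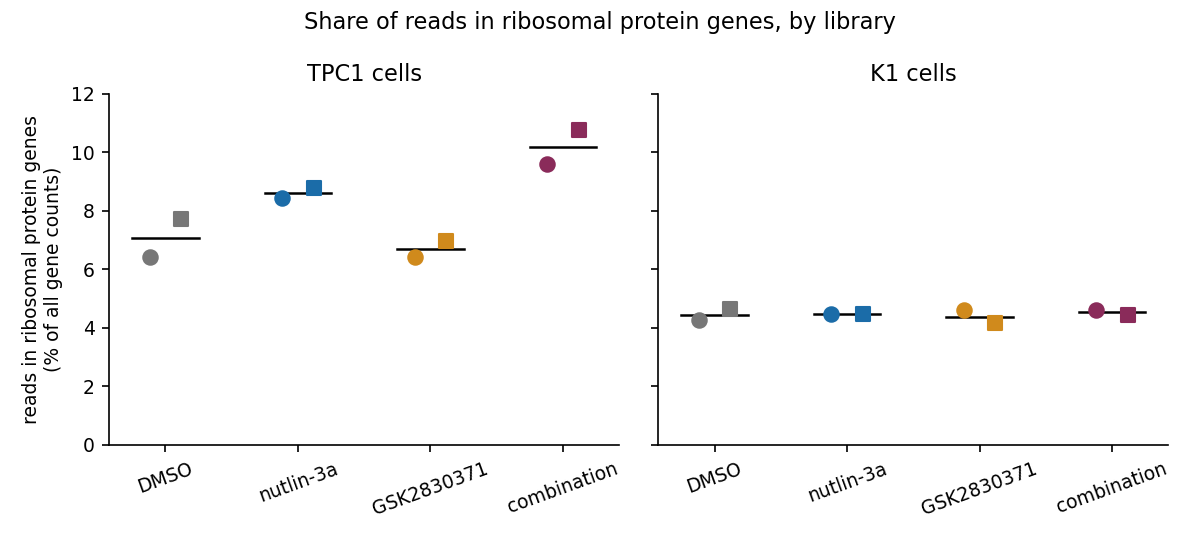
Reads in the 78 ribosomal protein genes as a percentage of all gene counts, for each of the 16 libraries by line and treatment, with circles for libraries numbered 1, squares for those numbered 3 (TPC1) or 2 (K1), and a bar at the mean. In TPC1 the share runs from 6.40% in a DMSO library to 10.8% in a combination library, while all K1 libraries lie between 4.15% and 4.63%.

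Nutlin raised ribosomal protein mRNAs in TPC1. Of 77 tested members, 39 rose and 0 fell at an adjusted p below 0.05, against 27.3% of all 15273 genes tested that rose and 28.3% that fell (edgeR's quasi-likelihood test, Benjamini-Hochberg over all genes tested). The median log2 fold change of the members was 0.30, with 73 of 77 above 0, while the median of all genes tested was -0.002. The changes were small: 2 members, RPS19 and RPL13A, rose by over 1.5-fold, against 17.5% of all genes. In 56 members both nutlin libraries lay above both DMSO libraries, against 37.1% of all genes. With the replicate block, 65 members rose and 1, RPS26, fell, against 33.1% and 33.2% of all genes. The count depended on single libraries: it fell without either nutlin library or DMSO library 1 and rose without DMSO library 3. The share of all genes in those fits is not given here. The 2 DMSO libraries themselves differed, with library 3 above library 1 by a median log2 of 0.25 in CPM over members at 5 CPM or more. That is close to the median nutlin change of 0.30.

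RPS19, a small subunit protein needed for maturation of 18S ribosomal RNA, changed most. Its level in TPC1 was 498 and 561 CPM in DMSO, 990.0 and 950.1 CPM after nutlin, 518 and 497 CPM after GSK2830371, and 1074 and 1135 CPM after the combination. The nutlin and combination libraries did not overlap with those of the other treatments, and the log2 fold change under nutlin was 0.91 ± 0.089 (SE, adjusted p = 2.65e-05). RPL13A, which is also known as a translational silencer outside the ribosome, went from 246 and 269 CPM in DMSO to 407 and 375 CPM after nutlin, a log2 fold change of 0.63 ± 0.087 (adjusted p = 0.000233). RPL3, which lies near the peptidyl transferase centre, went from 1794 and 2176 CPM to 2733 and 2909 CPM, and RPL10, whose loading is a late step of large subunit maturation, from 1693 and 2090 CPM to 2601 and 2747 CPM. Their log2 fold changes were 0.54 ± 0.12 (adjusted p = 0.00422) and 0.53 ± 0.12 (adjusted p = 0.00497). At the other end stood RPS26, a protein at the mRNA exit channel after which GENCODE names 36 pseudogenes, with 340.3 and 438 CPM in DMSO against 304 and 335 CPM after nutlin. Its log2 fold change was -0.25 ± 0.15 (adjusted p = 0.185), and with the replicate block -0.24 ± 0.061 (adjusted p = 0.00251). RPL17 (-0.07), RPL35 (-0.01) and RPS10 (0.01) were the next lowest on the log2 scale among members at 5 CPM or more, and their DMSO and nutlin libraries overlapped. RPL35, for example, read 774 and 1055 CPM in DMSO and 848 and 926 CPM after nutlin.

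GSK2830371 alone called 0 members in TPC1 in either direction by this test, against 1.87% of all genes higher and 1.64% lower. The median log2 fold change of the members was -0.15, with 2 of 77 above 0. With the replicate block 19 members fell and 0 rose, against 11.4% and 10.6% of all genes, with log2 fold changes of -0.33 to -0.18. RPS26 was lowest again (-0.33 ± 0.061, adjusted p = 0.00161), at 286 and 354 CPM against 340.3 and 438 CPM in DMSO. In 19 members both GSK2830371 libraries lay below both DMSO libraries, against 19.6% of all genes. At an unadjusted p below 0.05 there were 0 higher and 11 lower. The share of all genes at that threshold is not given, here or for K1 below, so these counts have no background beside them. DESeq2's Wald test and every fit that left out 1 library also called 0.

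The combination called nearly all members in TPC1. Of 77 tested, 70 rose and 0 fell, against 32% and 32.1% of all genes, and 28 rose by over 1.5-fold, against 22.5% of all genes. The median log2 fold change was 0.53, against 0.004 for all genes tested, and the quartiles of the members were 0.43 and 0.65. Both combination libraries lay above both DMSO libraries in 71 members, against 37.2% of all genes. RPS19 (1.11 ± 0.089, adjusted p = 4.95e-06), RPL13A (0.88 ± 0.088, adjusted p = 2.03e-05), RPL3 (0.86 ± 0.12, adjusted p = 0.000208) and RPL12 (0.84 ± 0.12, adjusted p = 0.000284) stood highest on the log2 scale. RPL12, which forms the base of the stalk, read 1226 and 1505 CPM in DMSO, 1697 and 1782 CPM after nutlin, 1332 and 1538 CPM after GSK2830371, and 2240 and 2463 CPM after the combination. Its combination libraries lay above all others. The members that did not pass were RPS29, RPL27, RPL24, RPL21, RPL35, RPS10 and RPS26, and all but RPS26 had a log2 fold change above 0. Marker levels moved with treatment as well. Summed epithelial markers in TPC1 ran from 790.0 to 910.0 CPM in DMSO, 582 to 631 CPM after nutlin and 414 to 475 CPM after the combination. The epithelial markers did not move alike under nutlin in TPC1. On the log2 scale KRT18 fell (-1.13, adjusted p = 4.96e-05) and KRT8 did not pass the test (-0.10, adjusted p = 0.44). KRT19, below 1 CPM, rose (1.93, adjusted p = 0.0307), and EPCAM, also below it, did not pass (-1.12, adjusted p = 0.384). Summed thyroid markers in TPC1 ran from 349 to 351 CPM in DMSO, 477 to 481 CPM after nutlin and 306 to 356 CPM after the combination. In K1 the epithelial sum ran from 1160.0 to 1240.0 CPM in DMSO, 1220.0 to 1230.0 CPM after nutlin and 920.0 to 985 CPM after the combination. The part of these shifts in the nutlin and combination results was not tested. RPS26 read 274 and 321 CPM, both below its DMSO libraries (log2 -0.34 ± 0.15, adjusted p = 0.0785), and fell with the replicate block (-0.33 ± 0.061, adjusted p = 0.000156), by which 74 members rose, against 36.5% of all genes.

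**Figure D2:**
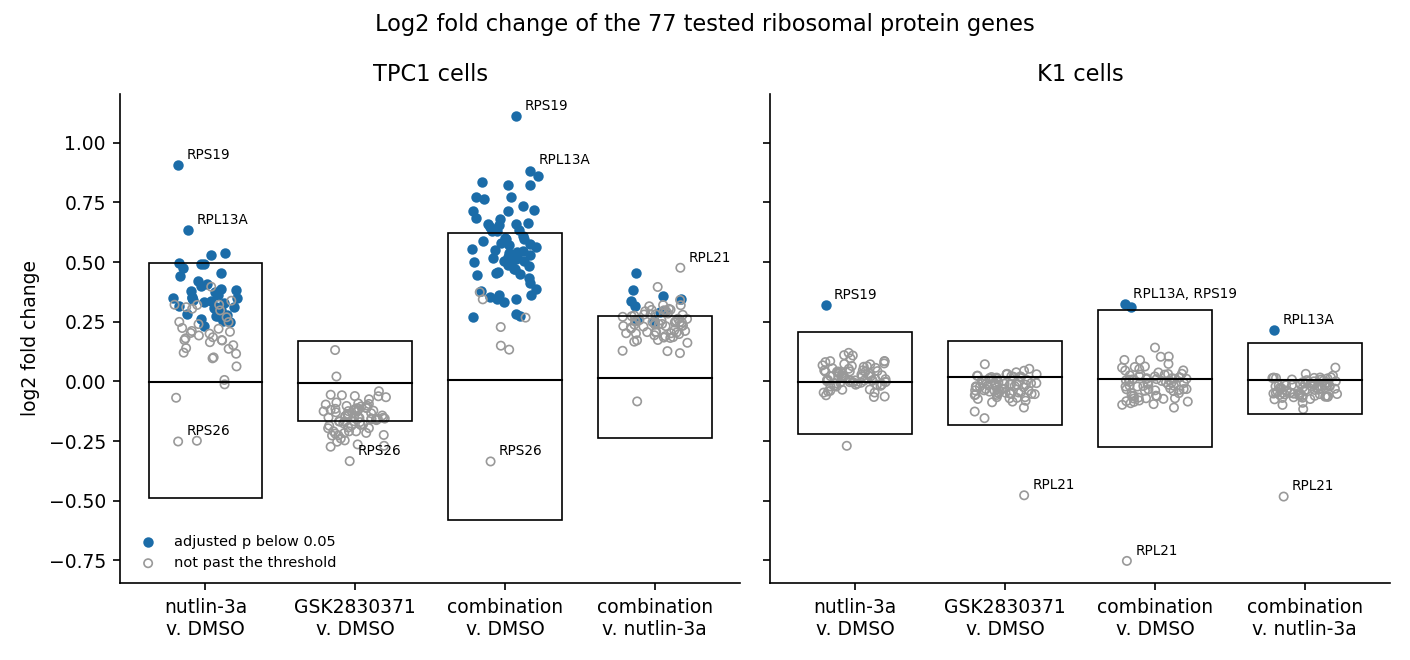
Log2 fold change of each of the 77 tested members (points) in 4 comparisons, TPC1 on the left and K1 on the right, filled where the adjusted p is below 0.05. The boxes and their middle lines give the quartiles and median of all genes tested. In TPC1 the members centre on 0.30 after nutlin and 0.53 after the combination, and in K1 on 0.02 and -0.01.

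The members lay higher after the combination than after nutlin alone in TPC1, by a small amount per gene. Against nutlin alone, 76 of 77 members had a higher level after the combination, with a median log2 difference of 0.25 against 0.013 for all genes. By the test 10 rose and 0 fell, against 13.2% and 12.9% of all genes, a share of members close to that background. Among them were RPL12 (0.45), RPL10A (0.38), RPS6 (0.36), RPL17 (0.34), RPL26 (0.34), RPL39 (0.29), RPL23 (0.29), RPL36 (0.26) and RPL32 (0.25). The count was 0 without either nutlin library or combination library 3, 3 without either GSK2830371 library, and 25 and 26 without DMSO library 1 and 3. It was 20 by DESeq2's Wald test, and 70 with the replicate block, against 22.2% of all genes. In 66 members both combination libraries lay above both nutlin libraries, against 31.9% of all genes.

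The combination exceeded the sum of the single-drug changes in TPC1 for all 77 members. The interaction, the log2 change of the combination minus those of nutlin and of GSK2830371, had a median of 0.41 and ran from 0.25 to 0.56, against a median of 0.016 for all genes. It passed the test in 6 members, RPL17, RPS27A, RPL34, RPS21, RPL32 and RPL36, against 3.84% of all genes (4.74% passed in the lower direction), and in 75 with the replicate block, against 13% of all genes. RPL17, which lines the exit tunnel and overlaps a readthrough gene, had the largest interaction. It read 137 and 154 CPM in DMSO, 140.2 and 131 CPM after nutlin, 131 and 128 CPM after GSK2830371, and 171 and 168 CPM after the combination. Unlike most members, RPL17 did not rise under nutlin alone (log2 -0.07). Its interaction was 0.56 ± 0.12 on the log2 scale (adjusted p = 0.0212). The unblocked count rested on single libraries, falling to 0 without DMSO library 3, either nutlin library, either GSK2830371 library or combination library 3, and rising to 31 without DMSO library 1.

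In K1 the same treatments moved few members past the test. Nutlin called 1 member higher and 0 lower, against 13.5% and 16.6% of all 15900 genes tested, with a median log2 fold change over the members of 0.02. That member was RPS19, at 496 and 546 CPM in DMSO and 644 and 647 CPM after nutlin (0.32 ± 0.066, adjusted p = 0.00212). GSK2830371 called 0 in either direction, against 8.38% higher and 10.8% lower. At an unadjusted p below 0.05 there were 0 higher and 1 lower, DESeq2's Wald test also called 0, and all fits without 1 library called 0 except that without GSK2830371 library 1, which called 1 lower. The combination called 2 higher and 0 lower, against 21% and 22.2% of all genes: RPL13A (0.32 ± 0.059, adjusted p = 0.000535) and RPS19 (0.31 ± 0.066, adjusted p = 0.00157). RPL13A read 92.9 and 101 CPM in DMSO, 104 and 104 CPM after nutlin, 104 and 99.1 CPM after GSK2830371, and 127 and 122 CPM after the combination. Its combination libraries lay above all others, and it was the 1 member called higher in the combination than in nutlin (0.21 ± 0.059, adjusted p = 0.0308), against 5.89% of all genes, with 0 lower against 6.53%. That call was lost without either library of the groups compared. The interaction called 0 in K1 in either direction, against 5.24% higher and 2.83% lower, with 0 at an unadjusted p below 0.05, 0 by DESeq2's Wald test and a median of -0.005. Both nutlin libraries lay above both DMSO libraries in 12 members, against 30.1% of all genes, and both combination libraries in 9, against 40% of all genes. The K1 fit was tight, with SEs such as 0.066 for RPL5 (log2 0.004 under nutlin, -0.05 under the combination) and 0.062 for RPL11 (0.09 and 0.02).

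**Figure D3:**
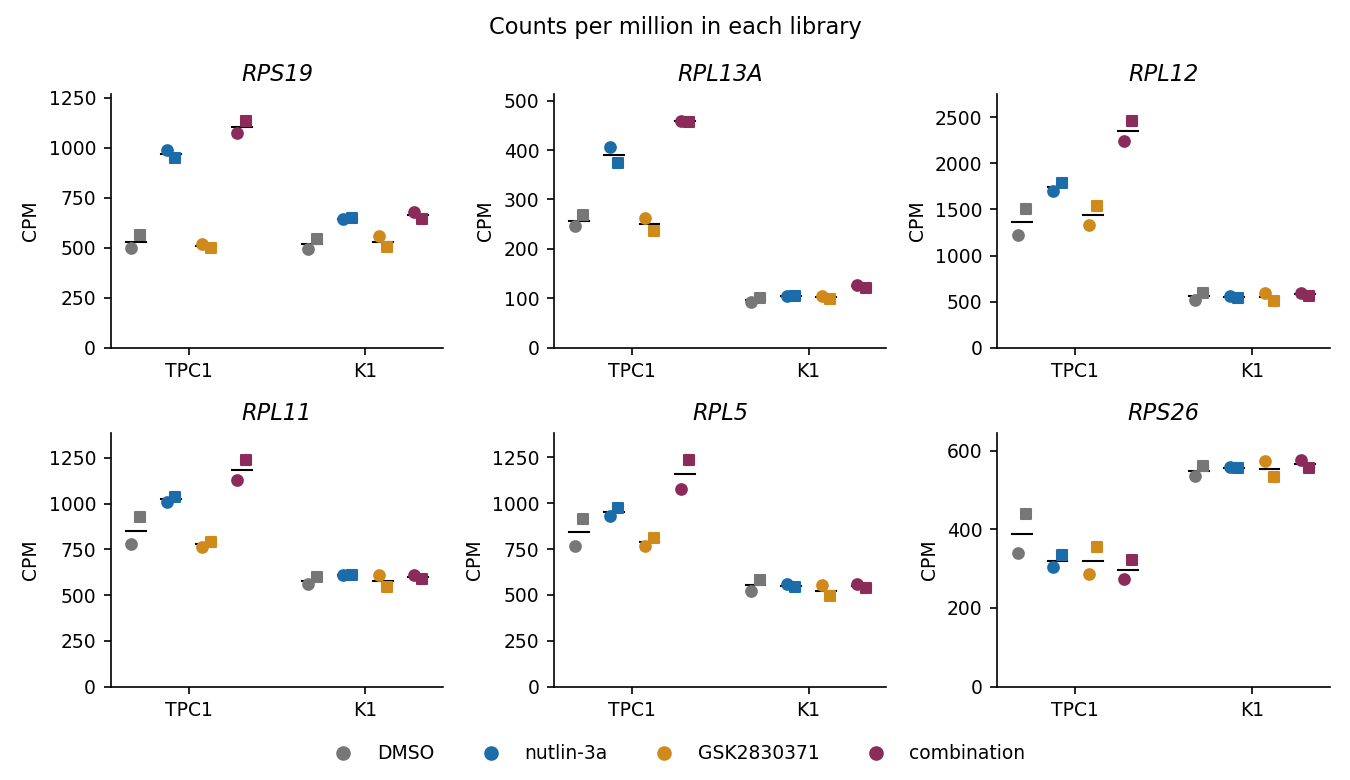
CPM of 6 members in each library, by line, with colours for treatments, circles for libraries numbered 1, squares for the other library of the group and bars at the mean. RPS19 rises under nutlin and the combination in both lines, to 1135 CPM in TPC1 and 680 CPM in K1, while RPL12, RPL11 and RPL5 rise in TPC1 and RPS26 is lower there than in K1.

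The lines differed in their response, by the test of the difference itself over 16738 genes in all 16 libraries. The nutlin response of 13 members was lower in K1 than in TPC1 and that of 0 was higher, against 16.5% and 14.6% of all genes. The lower share of members was close to the background in this fit, which holds no replicate block. The share of all genes with the block is not given here. The count fell to 3 without TPC1 DMSO library 1 or K1 DMSO library 2, to 4 without either K1 nutlin library, and to 7 and 8 without TPC1 nutlin library 1 and 3. It rose to 20, 30 and 57 without TPC1 combination library 1, combination library 3 and DMSO library 3, and to 51 with the replicate block. RPS19 differed most (-0.62 ± 0.12 on the log2 scale, K1 minus TPC1, adjusted p = 0.00117), although it rose in both lines. The combination response of 68 members was lower in K1 and that of 0 was higher, against 19.7% and 18.9% of all genes, with a median difference of -0.58 against -0.019. RPL12 (-0.85 ± 0.17), RPS19 (-0.83 ± 0.12), RPS4X (-0.80 ± 0.16) and RPL3 (-0.80 ± 0.16) differed most among members at 5 CPM or more, with adjusted p-values of 0.000811, 6.25e-05, 0.000889 and 0.000815. RPS4X, an X-linked small subunit gene, read 1245 and 1547 CPM in DMSO and 2144 and 2459 CPM after the combination in TPC1, against 585 and 633 CPM and then 633 and 608 CPM in K1. CDKN1A and MDM2 moved with this difference, their nutlin responses being lower in K1 by -2.48 ± 0.15 and -1.95 ± 0.12 on the log2 scale, and whether the size of the p53 response bears on the members was not tested. Across the 77 members, the nutlin responses of the lines had a Pearson correlation of 0.685 and a Spearman correlation of 0.543, against 0.638 and 0.622 across the 14509 genes tested in both lines. Genes of 1 library share its depth and composition and are not independent replicates.

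**Figure D4:**
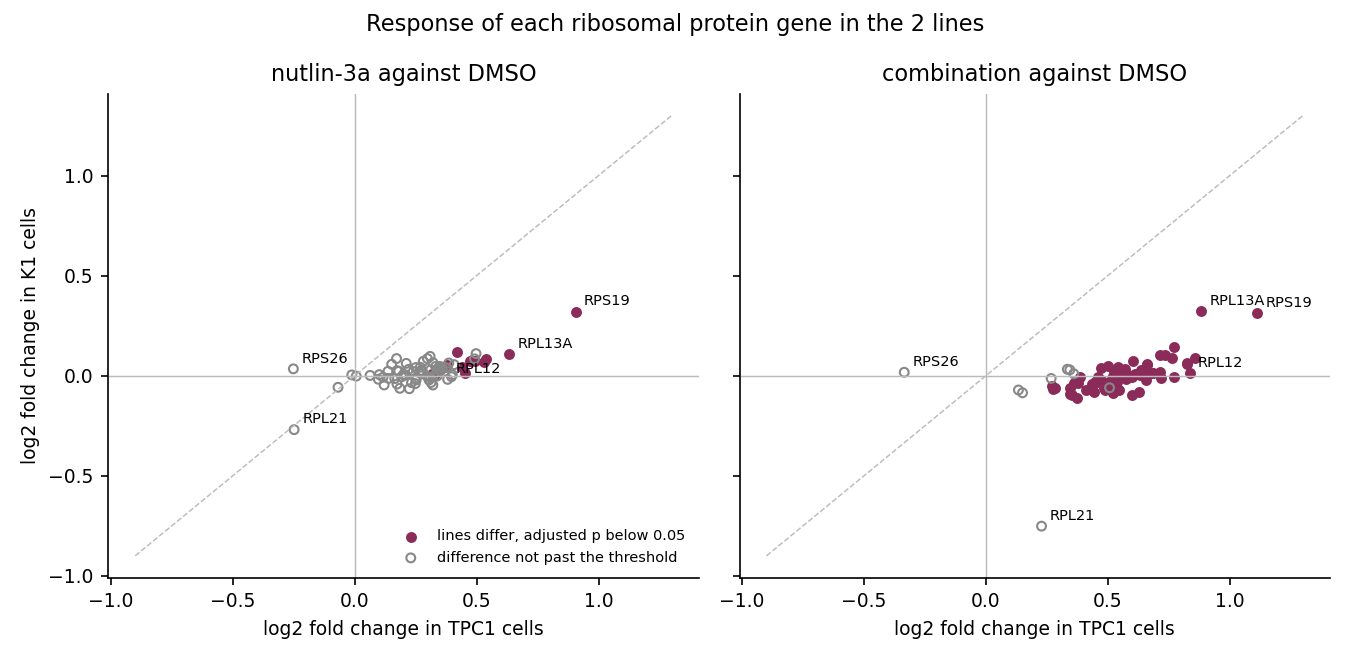
Log2 fold change of each of 77 members in TPC1 (horizontal) and K1 (vertical), for nutlin on the left and the combination on the right, filled where the difference between lines has an adjusted p below 0.05. Most points lie along the horizontal zero line, and RPS19 (0.91 and 0.32 under nutlin) lies above it in both panels, RPL13A (0.88 and 0.32) under the combination.

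Without drug, ribosomal protein mRNAs were lower in K1 than in TPC1. In DMSO 70 of 77 members were lower in K1 and 2 higher, against 33% and 34.7% of all genes, and 43 were lower by over 1.5-fold, against 21.2%. The median log2 difference was -0.64, against 0.018 for all genes. RPL13A (-1.41 ± 0.080), RPS24 (-1.36 ± 0.12), RPL12 (-1.29 ± 0.12) and RPL7A (-1.27 ± 0.12) were lowest in K1, with adjusted p-values of 1.15e-10, 4e-08, 7.48e-08 and 7.02e-08. RPS24 read 1082 and 1385 CPM in the TPC1 DMSO libraries and 473 and 491 CPM in those of K1. The exceptions were RPL41, whose product is among the shortest proteins known, at 1461 and 1777 CPM in TPC1 and 2390.0 and 2531 CPM in K1 (0.60 ± 0.11, adjusted p = 9.54e-05), and RPS26, at 340.3 and 438 CPM in TPC1 and 534 and 562 CPM in K1 (0.49 ± 0.13, adjusted p = 0.00353). Both K1 libraries of these genes lay above both TPC1 libraries. Without TPC1 DMSO library 1 the count of higher members was 1. RPS19, RPL37A, RPL23, RPL36A and RPL21 did not pass the test. For RPS19 the difference was -0.03 ± 0.088, so the member that responded most to nutlin in TPC1 started from a like level in both lines (498 and 561 CPM against 496 and 546 CPM). Line and culture medium cannot be told apart in this comparison, and the sample labels do not give the sequencing run.

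By role, the members of the stalk, which recruits translation factors, moved with the rest. RPLP0, the stalk's base, read 2407 and 3036 CPM in TPC1 DMSO and 3865 and 4752 CPM after the combination, and RPLP1 1413 and 1493 CPM and then 2095 and 2068 CPM. Their log2 fold changes were 0.72 ± 0.15 (adjusted p = 0.00253) and 0.57 ± 0.079 (adjusted p = 0.000191), and that of RPLP2 was 0.50 ± 0.12 (adjusted p = 0.00548). In K1 they were 0.02, 0.03 and -0.03, none past the test. Of the 2 members made as fusions with ubiquitin or a ubiquitin-like part, RPS27A, which also encodes ubiquitin, rose by 0.46 ± 0.091 in TPC1 under the combination (adjusted p = 0.00173), within the members' quartiles, and FAU rose by 0.33 ± 0.097 (adjusted p = 0.0134), below the lower quartile. FAU read 255 and 299 CPM in DMSO and 322 and 352 CPM after the combination.

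The ribosomal proteins known to bind MDM2 centred where the members as a whole did. The 9 listed were RPL5, RPL11, RPL23, RPL26, RPS3, RPS7, RPS14, RPS25 and RPS27. In TPC1 6 of them rose under nutlin, against 27.3% of all genes, and 9 under the combination, against 32%. With the replicate block 7 and 9 of them rose, against 33.1% and 36.5% of all genes. Their medians were 0.26 and 0.53 on the log2 scale, against 0.30 and 0.53 for all members, and in K1 none of the 9 was called under nutlin, GSK2830371 or the combination. RPL5 and RPL11, which bind MDM2 together with 5S ribosomal RNA, read 768 and 914 CPM and 777 and 925 CPM in TPC1 DMSO. After nutlin RPL5 read 928 and 973 CPM (0.21 ± 0.11, adjusted p = 0.143) and RPL11 1011 and 1036 CPM (0.30 ± 0.10, adjusted p = 0.0336), and after the combination they read 1077 and 1237 CPM (0.51 ± 0.11, adjusted p = 0.00309) and 1131 and 1240.0 CPM (0.53 ± 0.10, adjusted p = 0.00154). The nutlin and combination libraries of RPL5 lay above its DMSO libraries, and with the replicate block RPL5 rose under nutlin (0.21 ± 0.062, adjusted p = 0.00665). Of the 18 listed genes mutated in Diamond-Blackfan anaemia 17 were tested, and in TPC1 6 rose under nutlin, against 27.3% of all genes and 50.6% of all tested members, and 12 under the combination, against 32% and 90.9%. With the replicate block 11 rose and 1 fell under nutlin, and 15 rose and 1 fell under the combination. In that fit 33.1% of all genes and 84.4% of tested members rose under nutlin, and 36.5% and 96.1% under the combination. Of all genes 33.2% and 36.5% fell. This list holds both ends of the set, RPS19 and RPS26.

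A few members could not be followed well. RPL21 had 17 to 83 counts per library, below the 5 CPM set for naming. Its log2 fold change under the combination was 0.23 ± 0.32 in TPC1 and -0.75 ± 0.31 in K1 (adjusted p = 0.0697), which makes it the point farthest below the K1 members. GENCODE lists 133 pseudogenes named after RPL21. Reads with a low mapping quality had been removed before counting, and the part of this in the low counts was not tested. RPS10, RPL17 and RPL36A overlap annotated readthrough genes (RPS10-NUDT3, RPL17-C18orf32 and RPL36A-HNRNPH2), so that their counts may leave out reads shared with these. RPS10, at 48.9 to 82.2 CPM in TPC1, had an SE of 0.23 on the log2 scale under nutlin, against 0.089 for RPS19.

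Members with a longer TOP tract and those with a shorter one or none had like medians. In TPC1 under the combination the median log2 fold change was 0.53 over the 46 members with a run of 8 or more bases and 0.51 over the 17 with a shorter run or none. RPS4X, with no run in the window shown above, rose by 0.77 ± 0.13 (adjusted p = 0.00062), and RPS26 has a run of 5 bases. The 997 other tested protein-coding genes with a run of 8 or more had a median of -0.01, with 317 higher and 341 lower. The 9226 with a shorter run or none had a median of -0.03, with 2947 higher and 3278 lower. Whether the tract bears on the responses was not tested. The window depends on the annotated start, which can differ from the start used in these cells.

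**Figure D5:**
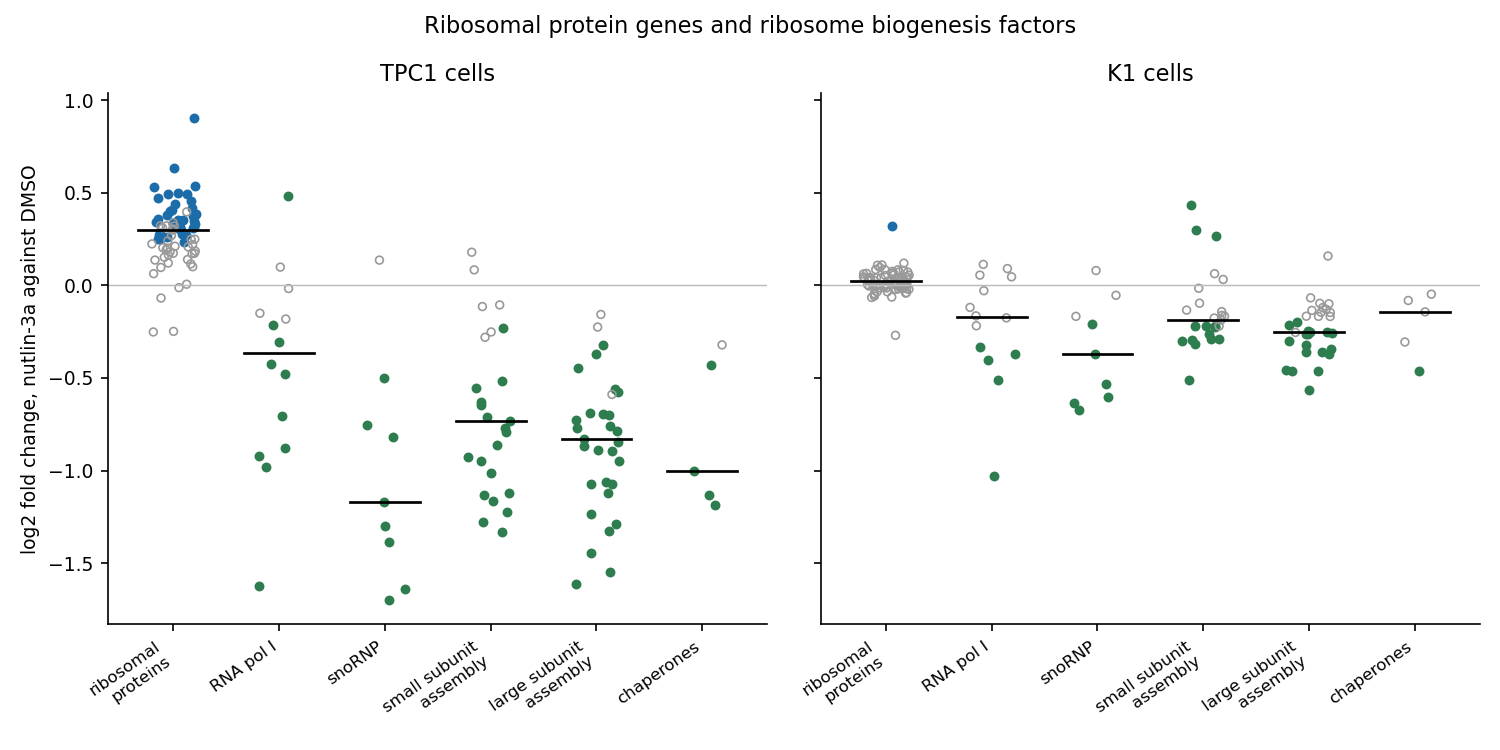
Log2 fold change under nutlin of the 77 tested ribosomal protein genes and of 84 ribosome biogenesis factors in 5 groups, TPC1 on the left and K1 on the right, filled where the adjusted p is below 0.05, with a line at each median. In TPC1 the members centre on 0.30 and the groups of factors between -0.37 and -1.17. In K1 the members centre on 0.02 and the groups between -0.14 and -0.37.

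In TPC1 under nutlin and under the combination, the genes that assemble ribosomes moved the other way from the members. Of 84 ribosome biogenesis factors tested in TPC1, 68 fell and 1 rose under nutlin, against 28.3% and 27.3% of all genes, with a median log2 fold change of -0.77. In K1 41 fell and 3 rose, against 16.6% and 13.5%, with a median of -0.22. The fall was seen in all 5 groups: in TPC1 9 of 14 RNA polymerase I genes, 8 of 9 genes of the small nucleolar ribonucleoproteins that modify ribosomal RNA, 19 of 25 small subunit and 28 of 31 large subunit assembly factors, and 4 of 5 chaperones that carry single ribosomal proteins. DKC1, the pseudouridine synthase of these particles, read 212 and 212 CPM in TPC1 DMSO, 66.4 and 66.9 CPM after nutlin, 168 and 175 CPM after GSK2830371, and 73.8 and 79.0 CPM after the combination. In K1 it read 89.0 and 101 CPM in DMSO and 62.7 and 61.8 CPM after nutlin. Its log2 fold changes under nutlin were -1.64 (adjusted p = 2.08e-07) in TPC1 and -0.60 in K1 (adjusted p = 1.47e-05). NCL, nucleolin, read 1650.0 and 1711 CPM in TPC1 DMSO and 636 and 675 CPM after nutlin. Under the combination 64 of the 84 fell and 4 rose in TPC1, against 32.1% and 32% of all genes, and 52 fell and 5 rose in K1, against 22.2% and 21%. In K1, then, assembly factors fell while 1 ribosomal protein gene rose and 0 fell under nutlin.

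Of 14 listed genes that control the translation of TOP mRNAs, 7 fell and 1 rose in TPC1 under nutlin, against 28.3% and 27.3% of all genes. In K1 5 fell and 1 rose, against 16.6% and 13.5%. PDCD4, an inhibitor of the helicase eIF4A, was the gene that rose in both lines (1.08 and 0.69 on the log2 scale, adjusted p = 2.83e-05 and 2.75e-05). EIF4EBP1, which blocks the cap-binding protein eIF4E, read 187 and 228 CPM in TPC1 DMSO and 101 and 107 CPM after nutlin, and 212 and 222 CPM after the combination. LARP1 read 571 and 440.1 CPM in DMSO and 393 and 335 CPM after nutlin (-0.44, adjusted p = 0.0463).

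Genes near the set but outside its symbols behaved in 2 ways. GNB2L1, the ribosomal scaffold RACK1, rose with the members in TPC1 under the combination (0.62 ± 0.11, adjusted p = 0.000891), and in K1 was at -0.02, not past the test. The paralogs differed among themselves. RPS27L, a known p53 target, read 45.2 and 48.6 CPM in TPC1 DMSO and 197 and 193 CPM after nutlin, and 131 and 129 CPM and then 228 and 238 CPM in K1. On the log2 scale RPS27L rose by 2.09 ± 0.084 (TPC1, adjusted p = 7.79e-08) and 0.85 ± 0.051 (K1, adjusted p = 3.59e-08), while its partner RPS27, a member, changed by 0.50 ± 0.14 (adjusted p = 0.0161) and 0.11 ± 0.063 (adjusted p = 0.216). RPL22L1, the paralog of RPL22, was lower after nutlin at a log2 fold change of -0.94 ± 0.11 (adjusted p = 6.91e-05) for TPC1 and -0.31 ± 0.11 (adjusted p = 0.0454) for K1, a K1 call lost under 10 of 19 alternatives. RPL39L, mainly known from the testis, read at most 0.183 CPM in TPC1 and 5.67 to 10.1 CPM in K1. In K1 it fell under nutlin (log2 -0.62 ± 0.12, adjusted p = 0.00134), whereas RPL39 itself rose in TPC1 under nutlin (0.42 ± 0.093, adjusted p = 0.00399) and read 0.12 ± 0.066 in K1 (adjusted p = 0.198). RPL7L1 (-0.30, adjusted p = 0.045) and RPL26L1 (-0.23, adjusted p = 0.0409) fell in TPC1 under nutlin, and RPL36AL read -0.20 there (adjusted p = 0.179) and rose in K1 (0.17, adjusted p = 0.0198).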

How the data were processed

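The 16 libraries held stranded polyadenylated RNA of TPC1 and K1 cells in 8 groups of 2. Per the study's methods and the submitters' processing notes, the authors aligned reads with TopHat2 2.0.13 to hg19, removed reads of low mapping quality with SAMtools (the methods and the notes give different versions) and counted reads per gene with HTSeq 0.6.1 on the strand of the gene. The deposited values are raw gene counts, and no other column was used. Columns of TPC1 are numbered 1 and 3 and are named so here, while the sample labels number these replicates 1 and 2. That column 3 is the labelled replicate 2 was not settled, and the replicate block rests on the column numbers.

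Genes above 0.1 CPM in at least 2 libraries were kept, scaled by TMM and tested with edgeR 4.0.16 (quasi-likelihood), jointly for the 4 groups of a line (15273 genes in TPC1, 15900 in K1) and over all 16 libraries for differences between lines. P-values were adjusted by Benjamini-Hochberg over all genes tested. A gene was called at an adjusted p below 0.05, and a stricter rule added a fold above 1.5. CPM values are counts per 1000000 of the library total, given per library or as a fold on the log2 scale with its SE.

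Same-numbered libraries of TPC1 deviated together from their group means (correlations of 0.496 to 0.696 over 12303 genes), so the numbers were taken to pair them. Those of K1 did not (-0.357 to 0.376 over 12546 genes). Alternatives were other scalings, filters, DESeq2 1.42.0, a GC and length offset, the block, only the groups compared, and each library left out. The procedure was also run on simulated counts drawn with a common spread for all genes and no replicate effect. Such counts cannot show how it handles the replicate effect of TPC1.

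The named genes were, per comparison, the 4 highest and 4 lowest members of at least 5 CPM, those with the most or fewest counts, those not tested, and fixed genes of known role. Other genes printed were chosen after their values were seen. The members and lists were chosen with earlier results of these data known. A few genes are not reported here by name.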

Additional observations from a re-analysis of the deposited data

Results flagged for a closer look

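Differences in response between the lines, K1 minus TPC1, are repeated here because the test of the difference itself passed. Under nutlin this held for 13 members, each lower in K1. They were 16.9% of the members tested, against 16.5% of all genes lower, so the share was close to that background. RPS19 was at -0.62, RPL13A at -0.56, RPL10 at -0.50 and RPL3 at -0.49 on the log2 scale. Under the combination the test passed for 68 members, each lower in K1, or 88.3% of those tested, against 19.7% of all genes. RPL12 was at -0.85, RPS19 at -0.83, RPS4X at -0.80 and RPL3 at -0.80. Groups of 2 libraries were too small to look for single outlying libraries.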

How the results depend on the processing

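No result changed direction while past the threshold. With the replicate block, alone and with the GC and length offset, 65 members were higher and 1 lower in TPC1 under nutlin in both fits, 19 and 16 were lower under GSK2830371 (0 and 1 higher), 1 was lower under the combination, 70 and 73 were higher in the combination than in nutlin (0 and 1 lower), and 75 and 74 had a higher interaction. The 1 lower member of the TPC1 combination also appeared by library size only, without a filter, by DESeq2 and with the offset. The combination exceeded nutlin in 30 members without a filter, 20 by DESeq2 and 46 with the offset, and the interaction was higher in 1 by library size only, 35 without a filter, 26 by DESeq2 and 28 with the offset. The nutlin response was lower in K1 in 46 members without a filter, 47 with the offset and 51 with the block (1 higher), and the combination response higher in 1 by library size only, with the offset or with the block. The causes were not tested. Shares of all genes are not given for the fits of this section, except those of TPC1 with the block alone, which stand in the Results. The other counts thus have no background beside them. Calls over all genes changed with the setting as well. In TPC1 13.2% of all genes were higher in the combination than in nutlin without the block, and 22.2% with it.

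In K1, 1 member was lower under GSK2830371 without a filter, 2 were lower under the combination with the offset, alone or with the block, and the block left 0 higher in the combination than in nutlin. The K1 DMSO numbers ran opposite to the rest, and a pairing with them exchanged, chosen after seeing the data, called 2 higher under nutlin and 1 lower under GSK2830371.

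With 1 library left out, the TPC1 counts ran from 12 to 62 higher and 0 to 1 lower under nutlin, 56 to 73 higher and 0 to 1 lower under the combination, 0 to 26 for the combination against nutlin and 0 to 31 for the interaction. In K1 they ran from 2 to 3 higher and 0 to 1 lower under the combination, 0 to 1 higher against nutlin and 0 to 1 lower under GSK2830371. Between lines they ran from 1 to 2 higher and 59 to 71 lower in DMSO, 3 to 57 lower and 0 to 1 higher for the nutlin response, and 52 to 74 lower and 0 to 1 higher for the combination response. Groups of 2 libraries limit each count, and in a group left with 1 library that library is assumed to vary like the others. For single members, 5136 values kept direction and side of the threshold, 217 moved past it and 108 lost it.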
